A study of Glycine max with 12 samples.

Results

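Glyma.03G130400.Wm82.a2.v1 and Glyma.03G130600.Wm82.a2.v1 are 2 soybean genes numbered close together on chromosome 3 and taken here, by the rule that chose them, as homologues of the Arabidopsis iron-deficiency regulators bHLH038 and bHLH039. They are 2 of the 43517 genes in the count table, and both passed the filter on low counts that left 31841 genes. The ending of the identifiers, which names the genome annotation, is left off from here on, and no file used here gives them a name or a sequence. The study compared roots of soybean (Glycine max) of 2 plant materials, OX3 and W, that had received 50 µM MnSO4 as the manganese (Mn) treatment or 5 µM as the control, with 3 libraries in each of the 4 groups. The authors' tables head OX3 as OX and W as WT. Neither labels nor tables say what distinguishes the materials, how old the plants were, how long the treatment lasted, how much iron they received or whether the libraries of a group came from separate plants. The p-values of the comparisons between groups therefore rest on how much libraries varied within groups, and that variation may be technical. Those of the correlation between the 2 genes come from exchanging libraries without regard to group, and the same limit applies to them. The main edgeR fit estimates the spread of a gene over all 4 groups together, so its p-values do not rest on the compared groups alone.

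In Arabidopsis, bHLH038 and bHLH039 are basic helix-loop-helix transcription factors of subgroup Ib. They are made when the plant is short of iron and pair with the regulator FIT in the root epidermis. The pair switches on the ferric reductase FRO2, which reduces iron at the root surface, and the transporter IRT1, which takes it up. IRT1 is not specific for iron and also carries manganese. The transcripts of these regulators are a usual readout of the iron status of a root. In soybean, a major locus for iron-deficiency chlorosis lies on chromosome 3, and homologues of these regulators have been studied there as candidates.

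Total counts per library ranged from 15175866 to 19408318. Before further scaling, 1 read was thus worth between 0.0515 and 0.0659 CPM (the reads of a gene scaled to a fixed library total). The CPM given below are also scaled by TMM factors, which ran from 0.859 to 1.25, so that 1 read can be worth less or more there. In W replicate 2 at 50 µM, for example, 1 read was 0.0725 CPM. On the first principal component of all genes tested, which held 33.7% of the variance, W control replicate 2 lay at -107.2 beside the OX3 controls (-107.1, -88.9 and -53.0), whereas the other W controls lay at -1.23 and 35.3. Among the OX3 libraries at 50 µM, replicate 4 was at -16.8 and the others at 60.7 and 35.6. On the second component, which held 18.9%, W control replicate 3 was farthest out at -136.8, with W control replicate 4 at -53.0 and OX3 control replicate 4 at 72.7.

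Neither gene changed with 50 µM MnSO4, in W or in OX3, past the threshold of 0.05 on p-values adjusted over all genes tested, and neither differed between OX3 and W past it. Both had few reads. Glyma.03G130400 was measured with 32 to 76 reads per library (median 41) and was the steadier one, its CPM spanning a 2.28-fold range over the 12 libraries. Glyma.03G130600 had 1 to 38 reads (median 12.5) and a 21.7-fold range. The 95% interval of its Mn effect in W ran from 0.561-fold to 9.16-fold. At this depth and number of libraries it included no change as well as a fall or a rise inside those bounds. Roots were sequenced in bulk, where fewer cells that express a gene and less RNA of it per cell cannot be told apart.

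Levels of the 2 genes can be compared with each other only per length, as FPKM. The lengths implied by the deposited FPKM were 806 bp for Glyma.03G130400 and 1102 bp for Glyma.03G130600. Glyma.03G130400 averaged 3.09 FPKM over the 12 libraries, at percentile 53.2 of all genes with FPKM values, and Glyma.03G130600 averaged 0.685 FPKM, at percentile 30.9. Glyma.03G130600 was the lower one in all 12 libraries. Reads that similar copies share could have been divided between them in ways that the counts do not show, so both levels are uncertain in that respect.

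Expressed as a percentage of the FPKM of Glyma.03G130400 in the same library, Glyma.03G130600 reached 34.7%, 34.0% and 4.99% in OX3 at 50 µM (replicates 2, 3 and 4) and 60.4%, 43.1% and 13.5% in OX3 at 5 µM (replicates 2, 3 and 4). In W it reached 29.6%, 1.83% and 17.5% at 50 µM (replicates 1, 2 and 3) and 21.2%, 4.43% and 4.57% at 5 µM (replicates 2, 3 and 4). The 2 genes were thus not held at a fixed proportion to each other, and each of the 4 groups except the OX3 controls held at least 1 library in which the second gene stood below 5% of the first.

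**Figure D1:**
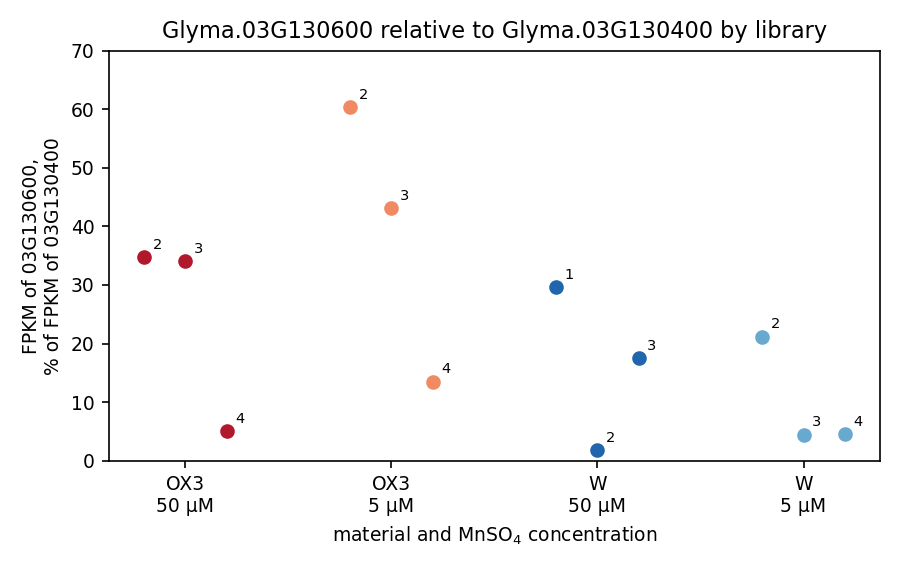
Deposited FPKM of Glyma.03G130600 as a percentage of that of Glyma.03G130400 in the same library (vertical axis), for each of the 4 groups of material and MnSO4 concentration (horizontal axis). Each point is 1 library, with its replicate number. The percentages run from 1.83% to 60.4%, with the highest in OX3 at 5 µM.

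For Glyma.03G130400 the TMM-normalised levels in OX3 at 50 µM were 2.61, 2.67 and 2.46 CPM in replicates 2, 3 and 4, from 40, 43 and 44 reads. In OX3 at 5 µM they were 1.90, 1.88 and 3.87 CPM in replicates 2, 3 and 4, from 46, 39 and 76 reads. The treated libraries lay close together and inside the range of the controls, of which replicate 4 alone was high.

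In W at 50 µM, Glyma.03G130400 was at 2.44, 2.90 and 3.22 CPM in replicates 1, 2 and 3, from 42, 40 and 46 reads. In W at 5 µM it was at 1.70, 2.35 and 2.09 CPM in replicates 2, 3 and 4, from 38, 33 and 32 reads. Every treated W library lay above every W control, by a narrow margin between the lowest treated and the highest control library. Such a separation in the same direction occurred in 11.3% of all genes tested, and in either direction in 24.3%.

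For Glyma.03G130600 the levels in OX3 at 50 µM were 1.24, 1.24 and 0.167 CPM in replicates 2, 3 and 4, from 19, 20 and 3 reads. In OX3 at 5 µM they were 1.57, 1.11 and 0.713 CPM in replicates 2, 3 and 4, from 38, 23 and 14 reads. Replicates 2 and 3 of the treated libraries lay inside the range of the controls, and replicate 4, the library that stood apart on the first component, lay below it. Its 3 reads have a 95% counting interval from 0.619 to 8.77 reads, which does not reach the 19 and 20 reads of the others.

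In W at 50 µM, Glyma.03G130600 was at 0.986, 0.0725 and 0.771 CPM in replicates 1, 2 and 3, from 17, 1 and 11 reads. In W at 5 µM it was at 0.493, 0.142 and 0.131 CPM in replicates 2, 3 and 4, from 11, 2 and 2 reads. The W groups overlapped, since the treated replicate 2 had the lowest level of all 12 libraries while the other treated libraries were above all W controls. The highest W control, replicate 2, is the one that lay beside the OX3 controls on the first component.

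**Figure D2:**
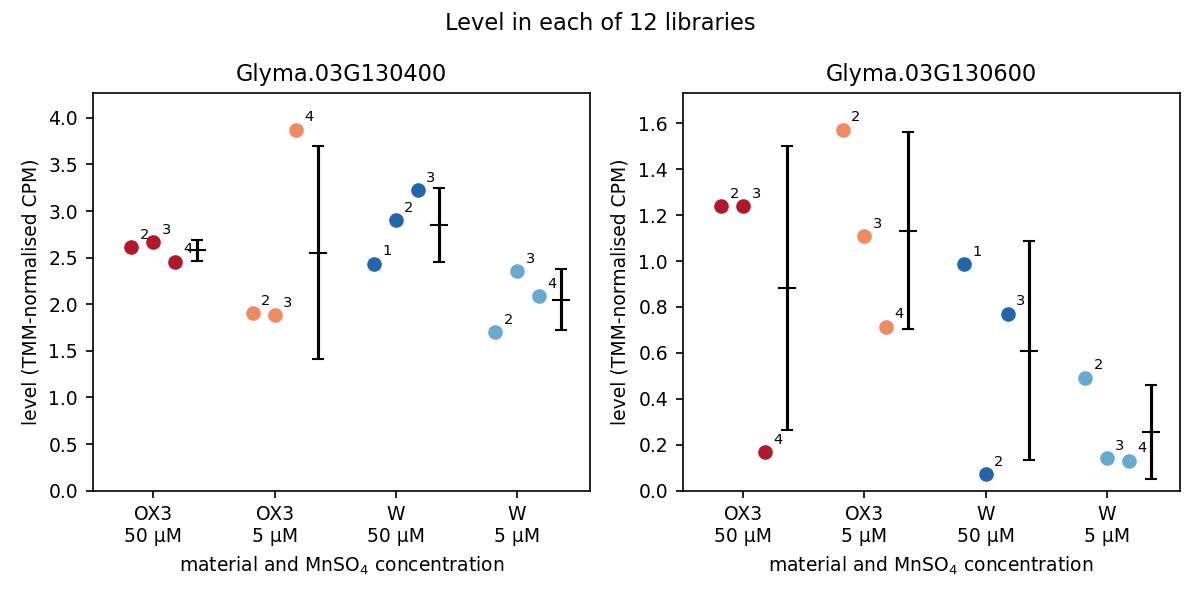
TMM-normalised CPM (vertical axis, from 0) of Glyma.03G130400 (left) and Glyma.03G130600 (right) in the 4 groups of material and MnSO4 concentration. Points are libraries with their replicate numbers, and the bar beside them is the mean ± SD (n = 3 libraries). The OX3 control at 3.87 CPM stands out for the first gene, and the second is at 0.167 CPM in 1 treated OX3 library and at 0.0725 CPM in 1 treated W library.

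The spread between libraries was compared with what counting alone gives. Around the group means, the variance of the reads was 3.16 times the counting variance for Glyma.03G130400 and 4.81 times for Glyma.03G130600. Each ratio pools all groups, and for Glyma.03G130400 the spread was uneven. Its SD was 1.1 CPM in the OX3 controls, where replicate 4 had 76 reads and replicates 2 and 3 had 46 and 39. It was 0.11 CPM in the treated OX3 libraries, 0.40 CPM in the treated W libraries and 0.33 CPM in the W controls. The ratio of this gene therefore need not hold outside the OX3 controls, and it was not computed for each group. In the edgeR fit the biological coefficient of variation was 0.299 for Glyma.03G130400, higher than in 42.2% of the genes tested. For Glyma.03G130600 it was 0.673, higher than in 92.8% of them. The trend fitted for genes of the same abundance was at 0.466 for Glyma.03G130400 and 0.570 for Glyma.03G130600, so the first gene varied less than that trend and the second more.

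The first comparison asked whether excess Mn changes the regulators in W. Glyma.03G130400 averaged 2.85 ± 0.40 CPM at 50 µM and 2.05 ± 0.33 CPM at 5 µM (SD, n = 3 each). The log2 fold change was 0.48 (SE 0.34, edgeR quasi-likelihood test, adjusted p = 0.46), and its 95% interval ran from -0.27 to 1.23. On the linear scale this interval allows anything between 0.83-fold and 2.35-fold. Its width rests on the spread over all 4 groups, the OX3 libraries included. Without OX3 control replicate 4, which is outside this comparison, the SE was 0.29, and in a fit of the W groups alone it was 0.35. The edgeR p before adjustment was 0.12 without that OX3 library, against 0.19 with all libraries. In an exact two-sided permutation test p was 0.1, which is the smallest that 3 libraries against 3 can give. The comparison called 0.00314% of all genes tested, that is 1 gene, while 18.6% had an unadjusted p under 0.05, which neither of the 2 regulators had.

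Glyma.03G130600 averaged 0.61 ± 0.48 CPM at 50 µM and 0.255 ± 0.21 CPM at 5 µM in W (SD, n = 3 each), from 29 and 15 reads summed over the groups. Its log2 fold change was 1.18 (SE 0.92, edgeR adjusted p = 0.50), and its 95% interval ran from -0.83 to 3.20. The exact two-sided permutation p was 0.4. Without W control replicate 2 the log2 fold change was 2.12, and without W replicate 2 at 50 µM it was 1.69. Without W replicate 1 at 50 µM it was 0.65, and a fit blocked on replicate number, which takes that library out of the comparison, gave 0.25.

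In OX3, Glyma.03G130400 averaged 2.58 ± 0.11 CPM at 50 µM and 2.55 ± 1.1 CPM at 5 µM (SD, n = 3 each). The log2 fold change was 0.02 (SE 0.34, edgeR adjusted p = 0.99), with a 95% interval from -0.72 to 0.76. The exact two-sided permutation p was 1.0. The log2 fold change rests on the single high control. Without OX3 control replicate 4 the log2 fold change was 0.44 (adjusted p 0.53 in edgeR), close to the value in W. The difference of the OX3 and W responses was then -0.04.

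Glyma.03G130600 in OX3 averaged 0.882 ± 0.62 CPM at 50 µM and 1.13 ± 0.43 CPM at 5 µM (SD, n = 3 each), from 42 and 75 reads summed over the groups. Its log2 fold change was -0.37 (SE 0.83, edgeR adjusted p = 0.85), with a 95% interval from -2.18 to 1.44. The exact two-sided permutation p was 0.7. The sign hung on OX3 replicate 4 at 50 µM, without which the log2 fold change was 0.13. Over all genes, 0% (0 of 31841) passed the threshold in OX3 in edgeR's test, 15.0% had an unadjusted p under 0.05 (4774 genes) and DESeq2 called 1095, neither of the 2 regulators among them.

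Whether the response differed between the materials was tested as an interaction. The log2 response of Glyma.03G130400 in OX3, less its response in W, was -0.46 (SE 0.48, edgeR adjusted p = 0.85). For Glyma.03G130600 this difference was -1.55 (SE 1.24, edgeR adjusted p = 0.79), and the 95% interval from -4.25 to 1.15 was the widest of the 14 fitted. Leaving out 1 library moved the difference of Glyma.03G130600 between -2.49 (without W control replicate 2) and -1.02 (without W replicate 1 at 50 µM), with -1.05 without OX3 replicate 4 at 50 µM, and a fit blocked on replicate number gave -0.86. For Glyma.03G130400 the exact permutation p was 0.355 and for Glyma.03G130600 0.295, over 400 exchanges of treatment labels within each material. The comparison called 0.00314% of all genes.

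Averaged over both materials, the Mn effect was 0.25 (SE 0.24) on the log2 scale for Glyma.03G130400 and 0.41 (SE 0.61) for Glyma.03G130600. In that order, the edgeR adjusted p-values were 0.55 and 0.71 and the exact permutation p-values 0.19 and 0.86, where 0.005 is the smallest possible. In this comparison 2.32% of all genes passed the threshold. With 1 library left out, the effect on Glyma.03G130400 ran from 0.15 (without OX3 control replicate 2) to 0.46 (without OX3 control replicate 4, edgeR adjusted p = 0.19). That on Glyma.03G130600 ran from 0.14 (without W replicate 1 at 50 µM) to 0.87 (without W control replicate 2), and was 0.65 without OX3 replicate 4 at 50 µM. The 95% interval allows Glyma.03G130400 between 0.825-fold and 1.71-fold, and Glyma.03G130600 between 0.523-fold and 3.36-fold.

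Between the materials at 50 µM, the log2 fold change of OX3 over W was -0.15 (SE 0.34) for Glyma.03G130400 and 0.50 (SE 0.86) for Glyma.03G130600. In that order, the edgeR adjusted p-values were 0.91 and 0.87, with 0.0157% of all genes past the threshold. Without W replicate 2 at 50 µM, the library with 1 read, the log2 fold change of Glyma.03G130600 was -0.0044, and without OX3 replicate 4 at 50 µM it was 0.99.

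At 5 µM, Glyma.03G130400 gave a log2 fold change of OX3 over W of 0.32 (SE 0.34, edgeR adjusted p = 0.73). Without OX3 control replicate 4 it was -0.11.

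Glyma.03G130600 gave its largest difference of the 7 comparisons between the control groups. All 3 OX3 controls lay above all 3 W controls, with 75 reads in OX3 and 15 in W. The log2 fold change was 2.05 (SE 0.90), a 4.15-fold difference with a 95% interval from 1.06-fold to 16.2-fold. Its edgeR p was 0.042 before adjustment and 0.48 after adjustment over all genes, so it did not pass the threshold. Of all genes tested, 0.0126% passed it, 10.2% had an unadjusted p under 0.05, and 7.26% had every OX3 control above every W control (13.3% in either direction). The exact two-sided permutation p was 0.1, the smallest that this design allows.

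In a fit of all 12 libraries blocked on replicate number, that log2 fold change of Glyma.03G130600 was 2.16 (adjusted p 0.46 in edgeR). Without W control replicate 2 it was 2.97 (adjusted p 0.18 in edgeR). It was 1.79 without W control replicate 3, 1.76 without W control replicate 4, and with OX3 control replicate 2 left out it was 1.74, with edgeR p-values before adjustment of 0.114, 0.120 and 0.115 in that order, so that these 3 fits did not keep an unadjusted p under 0.05. Averaged over both treatments, in a comparison chosen with the values known, the log2 fold change was 1.28 (SE 0.62, adjusted p 0.45 in edgeR). Its exact permutation p was 0.085, with 0.148% of all genes past the threshold. This average ran from 1.02 (without W replicate 2 at 50 µM) to 1.73 (without W control replicate 2) with 1 library left out. For Glyma.03G130400 the average was 0.09 (SE 0.24, adjusted p 0.90 in edgeR).

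**Figure D3:**
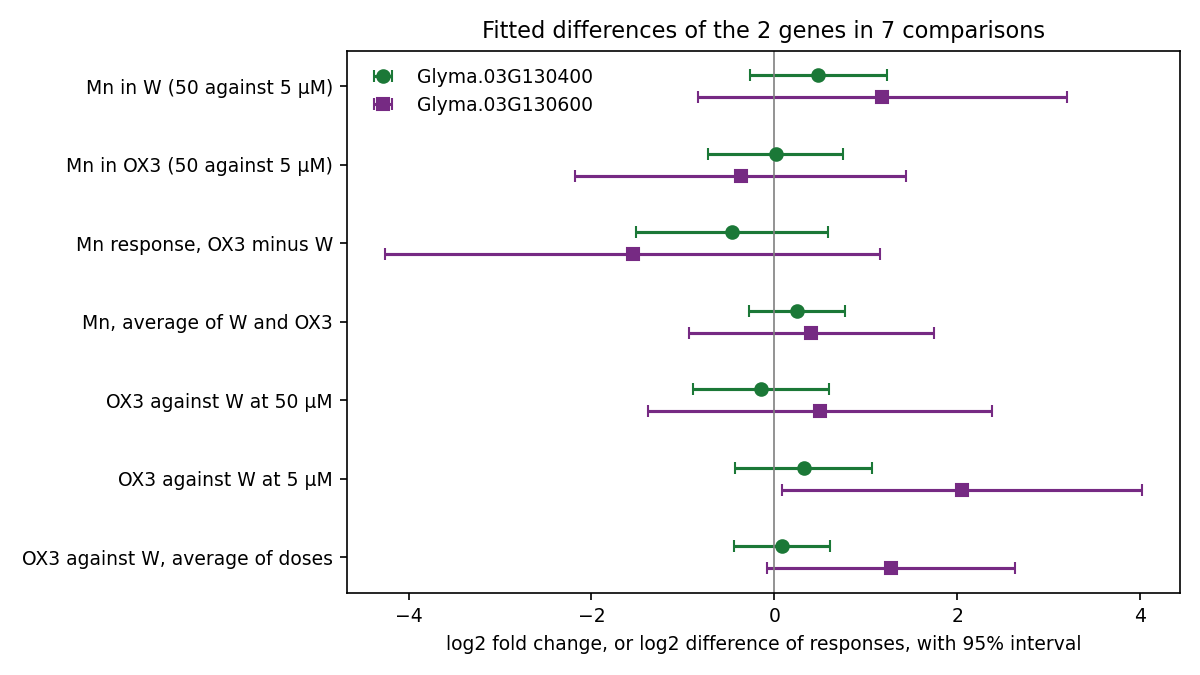
Fitted log2 fold changes, and for the interaction the log2 difference of responses (horizontal axis), with 95% intervals from edgeR's fit, for 7 comparisons (rows). Circles are Glyma.03G130400 and squares Glyma.03G130600. Every interval includes 0 except that of Glyma.03G130600 for OX3 against W at 5 µM, whose adjusted p over all genes was 0.48.

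The mean CPM of Glyma.03G130400 was highest in W at 50 µM, followed by OX3 at 50 µM, OX3 at 5 µM and W at 5 µM. On the FPKM scale, which uses raw library totals, the order differed, with 3.19 ± 0.29 FPKM in OX3 at 50 µM, 3.49 ± 1.3 FPKM in OX3 at 5 µM, 3.19 ± 0.26 FPKM in W at 50 µM and 2.49 ± 0.085 FPKM in W at 5 µM (SD, n = 3 each). Glyma.03G130600 was highest in OX3 at 5 µM, followed by OX3 at 50 µM, W at 50 µM and W at 5 µM, on both scales. Its group means were 0.794 ± 0.56 FPKM in OX3 at 50 µM, 1.18 ± 0.56 FPKM in OX3 at 5 µM, 0.507 ± 0.41 FPKM in W at 50 µM and 0.254 ± 0.25 FPKM in W at 5 µM (SD, n = 3 each). No neighbours in either order by CPM passed the threshold against each other in edgeR's test.

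No correlation of the 2 regulators over the libraries was detected. With 12 libraries and the few reads of Glyma.03G130600, a moderate correlation could have been missed. Pearson's r of their log2 CPM over 12 libraries was -0.05 (permutation p = 0.87) and Spearman's rho was -0.08 (permutation p = 0.81). Without the 2 libraries farthest from the median of Glyma.03G130400, OX3 control replicate 4 and W control replicate 2, r was -0.17 (permutation p = 0.62). For deviations from the group means r was -0.30 (permutation p = 0.36), and for log2(FPKM + 1) it was 0.17 (permutation p = 0.61). Ranked by likeness to Glyma.03G130400, Glyma.03G130600 came at place 16678 of 31840 genes.

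The genes whose log2 CPM was most like that of Glyma.03G130400 over the 12 libraries were Glyma.12G097500 (r = 0.93), Glyma.03G231500 (r = 0.92) and Glyma.13G238600 (r = 0.91). Those most like Glyma.03G130600 were Glyma.01G241400 (r = 0.91), Glyma.20G242000 (r = 0.91) and Glyma.16G055100 (r = 0.90). Those most like the mean of both were Glyma.11G170300 (r = 0.90), Glyma.08G067000 (r = 0.89) and Glyma.07G183000 (r = 0.89). The 3 lists share no gene. They are the top of 31840 or 31839 correlations over the same 12 libraries and are a description of these libraries only.

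The neighbours on chromosome 3 were examined to see whether the whole stretch varied. From Glyma.03G129900 to Glyma.03G131100 there were 12 genes, the 2 regulators included, and all were tested. In the numbering of the genes analysed here, the 2 regulators stood next to each other. Mean levels in the stretch over the 12 libraries ran from 0.685 FPKM, the value of Glyma.03G130600 itself, to 92.3 FPKM in Glyma.03G130800. Glyma.03G130400, at 3.09 FPKM, was also above Glyma.03G130200 (1.22 FPKM), Glyma.03G131100 (1.99 FPKM) and Glyma.03G131000 (2.11 FPKM), and below the rest. The genes on either side of the 2 regulators were at 4.56 FPKM (Glyma.03G130300) and 47.2 FPKM (Glyma.03G130700).

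In edgeR's test 0 of the 12 passed the threshold in any of the 7 comparisons, beside shares of 0% to 2.32% over all genes. Their median log2 fold change to Mn was 0.14 in W and -0.09 in OX3, against -0.02 in W and -0.03 in OX3 over all genes tested. For OX3 against W at 5 µM the median of the 12 was -0.04, against 0.05 over all genes, and 4 of the 12 had an unadjusted p under 0.05, Glyma.03G130600 being 1 of them, beside 10.2% of all genes. In the other comparisons such counts were 2 for OX3 against W averaged over treatments, 1 each for OX3 against W at 50 µM and Mn in OX3, and 0 for the remaining 3. Over all genes, the share was 15.0% for Mn in OX3 and 18.6% for Mn in W, where the count was 0. For the rest of these comparisons the share is not given here, so the counts are not ranked against each other. At a log2 fold change of 2.05, Glyma.03G130600 was at the upper end of the stretch in that comparison, the next being Glyma.03G130000 at 1.17, while Glyma.03G130900 was lowest at -1.02.

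**Figure D4:**
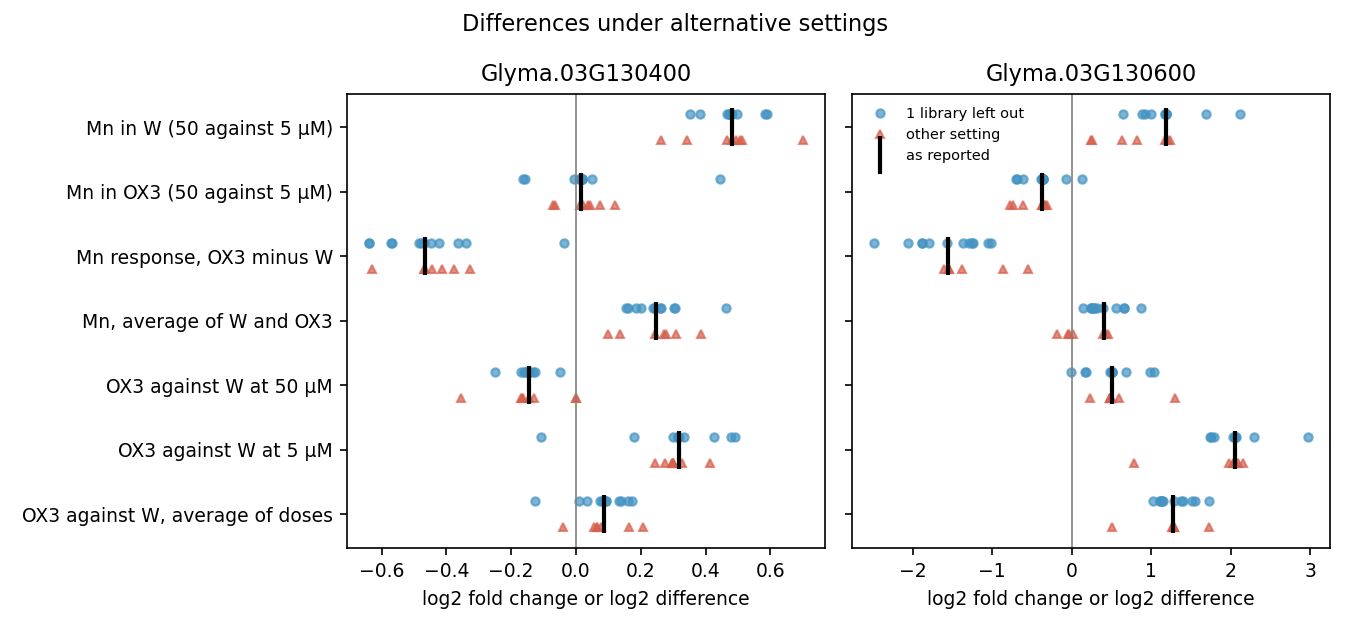
Log2 fold changes, and for the interaction the log2 difference of responses (horizontal axis), of Glyma.03G130400 (left) and Glyma.03G130600 (right) in 7 comparisons (rows). Black bars are the values reported, circles the fits with 1 library left out and triangles the other settings. For Glyma.03G130400 a single circle far from the rest, at 0.44 for Mn in OX3, is the fit without OX3 control replicate 4.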

How the data were processed

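RNA of soybean roots was sequenced in 12 libraries, 3 for each of 4 groups taken from the sample titles. Per the labels' protocols, Trizol was used for extraction and a VAHTS Universal V6 kit for library construction. The authors deposited read counts per gene and FPKM, and for both genes the FPKM equals the count divided by a whole-number gene length and by the library total. Tools named in the submitters' processing notes, with no role given, are HTSeq 0.6.0, HISAT2 2.1.0, Bowtie2 2.2.3, TopHat2 and CASAVA. The strand setting and the handling of reads shared between similar genes are not given in the sources used here.

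Counts were fitted with edgeR 4.0.16 in R 4.3.3, with TMM scaling, filterByExpr over the 4 groups and 1 quasi-likelihood model over all 12 libraries. Two-sided F tests were adjusted by Benjamini-Hochberg over the 31841 genes tested, and 0.05 was the threshold. Standard errors and 95% intervals come from the F statistic of that fit. Exact permutation tests exchanged libraries on log2 CPM with a prior count of 2, in 14 tests that were not adjusted for their number. The procedure was tested on simulated data. Alternatives were DESeq2 1.42.0, limma 3.58.1 (voom, and trend on FPKM in log2 after adding 1 or 0.1), RLE size factors, no filter on low counts, the 2 groups alone, a replicate block and leaving out each library. The comparison of OX3 and W averaged over treatments was added with the data known. Other calculations used scipy 1.17.1, numpy 2.4.6 and pandas 2.3.3.

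The members and lists were chosen with earlier results of these data known. The genes named are the members, the genes numbered next to them, and, for each member and for their mean, the 3 genes with the highest correlation over the libraries. Looked up in a reference table of 59048 soybean genes, 0 identifiers matched, so the 15 lists of iron and metal genes and the 4 lists of tissue markers that had been set by name had no member, and neither the rest of the pathway nor the labelled tissue was analysed by name here.

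Replicate numbers are shared between groups with no stated meaning. Deviations of same-numbered control libraries of OX3 and W from their group means correlated across genes at 0.26, 0.45 and 0.27 for replicates 2, 3 and 4, so these may be pairs. The main fit and the permutation tests treated them as unpaired, and the control groups alone were not fitted as pairs. Replicate number entered only as a block over all 12 libraries. In the other pairs of groups at least 1 such correlation was not above 0.1 or fewer than 3 numbers were shared.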

Additional observations from a re-analysis of the deposited data

How the results depend on the processing

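Under 272 alternatives to the 14 results on the 2 genes, none brought an adjusted p under the threshold, the lowest being 0.18, and 259 kept the direction. The sign turned in 13. For Mn in OX3, Glyma.03G130400 was at -0.065 and -0.072 on log2 FPKM with a pseudocount of 1 and 0.1, and between -0.16 and 0.44 with 1 library left out. Glyma.03G130600 was between -0.70 and 0.13 there with 1 library left out. For Mn averaged over both materials, Glyma.03G130600 was at -0.032 and -0.052 on log2 FPKM and at -0.18 with the replicate block. For OX3 against W, with 1 library left out, Glyma.03G130600 at 50 µM was between -0.0044 and 1.04, Glyma.03G130400 at 5 µM between -0.11 and 0.49, and its average over treatments between -0.13 and 0.17. That average was -0.040 with the replicate block. The correlation of the 2 genes was 0.17 on log2(FPKM + 1). The block changed no call on either gene. The fit of the W groups alone dropped Glyma.03G130600 by its filter, and DESeq2 gave it no adjusted p for the interaction. On log2(FPKM + 0.1), which has no TMM scaling, the median of all genes was -0.19 for Mn in OX3 and 0.22 for OX3 against W at 5 µM, against -0.03 and 0.05 in the values reported, and the cause of the reversals was not tested.

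Numbers of genes called over the whole table moved more. In DESeq2 the 1 gene for Mn in W became 1616, the 0 for Mn in OX3 became 1095, the 1 for the interaction 72 and the 740 for Mn averaged 4143, and for OX3 against W the 5 at 50 µM became 240, the 4 at 5 µM 234 and the 47 over treatments 605. With the replicate block the first 6 of these were 0 and the last 11. Limma-voom gave 276 for Mn averaged and 0 for OX3 against W at either dose, log2(FPKM + 1) gave 20 at 50 µM and 9 at 5 µM, and the 2 groups alone gave 0 at both. With 1 library left out, the counts ran from 0 to 9 for Mn in W, 0 to 8 for Mn in OX3, 0 to 1842 for Mn averaged, 0 to 6 and 0 to 100 for OX3 against W at 50 and 5 µM, and 20 to 579 over treatments. Glyma.03G130600 had 1 to 3 reads in 4 of 12 libraries, which limits its precision there, and its reads varied 4.81 times as much as counting alone gives.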
